A study of Mus musculus with 6 samples.

Results

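The genes described here encode the chains of collagens and laminins together with nidogen 1 and 2, perlecan (Hspg2) and fibronectin (Fn1), the proteins that build basement membranes and fibrillar matrix. They were chosen by name among the protein-coding genes of GENCODE M21 (symbols of the form Col, number, a, number, or Lam, a, b or c, number, plus Nid1, Nid2, Hspg2 and Fn1), which gave 59 genes of the 55487 gene identifiers in the count table. They comprise 44 collagens, 11 laminins and 4 linker and glycoprotein genes. Polyadenylated RNA was sequenced from whole testes of mice at postnatal day 19. A first group of 3 mice is labelled control. The second, also of 3 mice, is labelled dsfb, which the series title writes as Hormad1&2SFB/SFB, that is homozygous for SFB alleles of both Hormad1 and Hormad2. Both genes code for axis proteins of meiotic chromosomes. Each library is a separate animal (n = 3 per group). No label states the alleles of the control mice or the strain of either group. The comparison that the design allows is dsfb against control.

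A seminiferous tubule is wrapped by a basement membrane that Sertoli cells lay down on its inner side and peritubular myoid cells on its outer side. Such a membrane consists of a laminin network and a collagen IV network, joined by nidogens and perlecan. A laminin is a trimer of an alpha, a beta and a gamma chain, and collagen IV is a trimer of alpha chains encoded by 6 genes that lie head to head in pairs. Fibrillar collagens, their associated collagens and collagen VI fill the interstitium outside.

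The 6 collagen IV genes occupy 3 sites at which each pair starts on opposite strands. Per GENCODE M21 on GRCm38 (mm10), Col4a1 (ENSMUSG00000031502, chr8:11198423-11312826) and Col4a2 (ENSMUSG00000031503, chr8:11312805-11449287) overlap by 22 bases at their 5′ ends. The starts of Col4a3 and Col4a4 on chromosome 1 lie 72 bases apart, and those of Col4a5 and Col4a6 on the X chromosome 1309 bases apart. Promoter windows of RefSeq (GRCm38.p6, 250 bases before to 50 after a start, 300 bases long) were matched by symbol for 42 of the 59 genes, 4 of which have 2 windows. The windows of the Col4a1 and Col4a2 pair are shown because both genes rose and their windows share 78 bases, and that of Col16a1 (ENSMUSG00000040690, chr4:130047840-130099283) because it had the highest level of the genes that fell. Capitals mark GGGCGG (the letters of a GC box) and CCAAT, on either strand.
Col4a1, chr8:11312777-11313076, minus strand: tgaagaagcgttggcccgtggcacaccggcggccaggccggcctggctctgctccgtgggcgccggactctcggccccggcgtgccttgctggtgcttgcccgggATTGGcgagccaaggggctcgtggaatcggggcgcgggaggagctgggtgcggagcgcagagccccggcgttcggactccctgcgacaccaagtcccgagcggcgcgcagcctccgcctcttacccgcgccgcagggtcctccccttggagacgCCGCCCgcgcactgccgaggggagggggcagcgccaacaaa
Col4a2, chr8:11312555-11312854, plus strand: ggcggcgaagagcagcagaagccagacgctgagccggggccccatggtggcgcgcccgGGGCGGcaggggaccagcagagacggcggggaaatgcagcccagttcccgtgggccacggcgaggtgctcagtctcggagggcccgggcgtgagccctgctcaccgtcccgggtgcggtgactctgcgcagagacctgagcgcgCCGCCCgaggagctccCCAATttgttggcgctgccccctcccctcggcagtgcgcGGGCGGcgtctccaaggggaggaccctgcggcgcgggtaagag
Col16a1, chr4:130047590-130047889, plus strand: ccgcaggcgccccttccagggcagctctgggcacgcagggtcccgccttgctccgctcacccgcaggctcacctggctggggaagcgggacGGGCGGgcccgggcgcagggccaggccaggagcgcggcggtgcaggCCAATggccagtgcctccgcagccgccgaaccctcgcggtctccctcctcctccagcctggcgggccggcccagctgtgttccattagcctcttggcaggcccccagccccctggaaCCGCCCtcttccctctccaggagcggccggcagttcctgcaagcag

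Of the 38 genes that rose in dsfb 27 had a window, and of the 9 that fell 6 had one. GGGCGG, read on either strand, stood in the windows of 19 of these 27 (70.4%) and 3 of these 6 (50%), and in 35.7% of all 32851 mouse windows. Here and below a gene was counted if any of its windows matched, whereas the share of all windows counts each window by itself, so these shares differ in unit. CCAAT stood in 9 of the 27 (33.3%), in 3 of the 6 and in 37.4% of all windows. Among those 3 was Col9a1, which passed the filter on low counts through the control libraries alone, so its low dsfb value was built into its selection. TATAAA stood in Col11a2, Col13a1 and Col3a1 and in 13.6% of all windows. TAACGG, letters bound by MYB proteins, stood in none of these genes' windows and in 2.76% of all, and TGACGTCA (a cyclic AMP response element) only in that of Col24a1 among them, and in 1.79% of all. These motifs share no letters that would make one a part of another. A match of letters is a description of the window and says nothing of whether a factor binds there.

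The control libraries held 24.0, 27.7 and 25.7 M counted reads and the dsfb libraries 17.3, 15.3 and 16.0 M. Hormad1 was counted at 446, 486 and 209 CPM (reads of a gene per M reads on scaled library sizes) in control and 217, 246 and 243 in dsfb, an overlap of the groups (adjusted p = 0.0597), and Hormad2 fell by 0.96 on the log2 scale (adjusted p = 0.000757). The labels do not say that the SFB alleles change the transcript level, so neither gene checks the genotype. The summed level of 8 spermatid markers was 152, 171 and 777 CPM in control and 7.57 to 9.40 in dsfb, so control replicate 3 stood apart. Over all genes tested, 30.7% were higher and 36.2% lower in dsfb. Of 12 autosomal Sertoli cell markers 11 rose and none fell (median log2 fold change 1.01), with sums of 3000 to 4023 CPM in control and 7246 to 7680 in dsfb. All 8 pachytene spermatocyte markers fell, from sums of 6257 to 8571 CPM to 36.2 to 45.7. Among them Adam3, Nme8, Ccna1 and Pgk2 passed the filter on low counts (about 0.484 CPM in 3 libraries) through the control libraries alone. A low dsfb value was thus built into the selection of those genes. In whole testes, fewer cells of a type and less RNA per cell cannot be told apart, and neither can more of a somatic transcript and less of the germ cell RNA it is measured against.

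For that reason each gene was read on 2 scales. The first takes the bulk of all genes as its reference (TMM, the weighted trimmed mean of log ratios), and the second takes the Sertoli markers, by scaling each library to the geometric mean of their counts. Changes are log2 fold changes, dsfb minus control, with the standard error (SE). P-values are from the edgeR quasi-likelihood test, adjusted over all 19826 genes tested with a threshold of 0.05, so "rose" and "fell" are words for genes that passed it.

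Most collagen, laminin and linker genes rose in dsfb relative to all genes. Of the 59, 56 were tested: 38 rose, 9 fell and 9 did not pass, where 66.9% of all genes passed (30.7% higher and 36.2% lower in dsfb). The median log2 fold change of the 56 was 0.98, against 0.02 over all genes tested. The groups did not overlap for 49 of the 56, where they did not overlap for 74.7% of all genes tested. Together the 59 genes took 0.209% to 0.257% of the counts of a control library and 0.550% to 0.577% of a dsfb library. Not tested were Col9a2, Col10a1 and Col19a1, which were too low. Of the tested, 53 passed the filter on low counts in both groups, and Col9a1, Col12a1 and Lamb3 passed through the control libraries alone, so that a low dsfb value was built into their selection. Of the 53, 38 rose and 6 fell.

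On the Sertoli scale the same 56 genes divided differently: 4 rose, 18 fell and 34 did not pass, with a median of -0.08, where 66% of all genes passed (1.26% higher and 64.7% lower). Among the 18 were Col9a1, Col12a1 and Lamb3, whose low dsfb values were built into their selection. On TMM scaling, markers of peritubular myoid cells, the other builders of the basement membrane, rose in 7 of 10 (median 0.82). Their sums were 352 to 470 CPM in control and 569 to 734 in dsfb. Markers rose in 4 of 7 for Leydig cells, 6 of 10 for endothelium, 6 of 8 for interstitial mesenchyme and 6 of 10 for macrophages. The Leydig sums overlapped, at 334, 210 and 371 CPM in control and 531, 467 and 252 in dsfb. Among the Leydig genes that rose, Star overlapped between the groups. Another, Insl3, shares 64.85% of its exons with Jak3 on the same strand, and what part of its counts came from Jak3 was not tested. No member of these lists was called lower on TMM scaling. On the Sertoli scale 1 peritubular myoid marker rose and 4 fell (median -0.24). Of the other lists named, no marker rose there, and 2 Leydig, 3 endothelial, 2 mesenchyme and 3 macrophage markers fell. Spermatogonial markers rose in 6 of 8 and fell in 1 on TMM scaling (median 0.74), and on the Sertoli scale none rose and 3 fell. Their summed level was 693 to 896 CPM in control and 426 to 489 in dsfb. The gene that fell on TMM scaling, Dmrtb1, held the largest part of the control sum. It was at 431, 521 and 709 CPM in control and 41.5, 40.4 and 53.9 in dsfb, so the lower sum does not describe the other genes of the list. The part of these cell types in the values below was not tested.

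**Figure D1:**
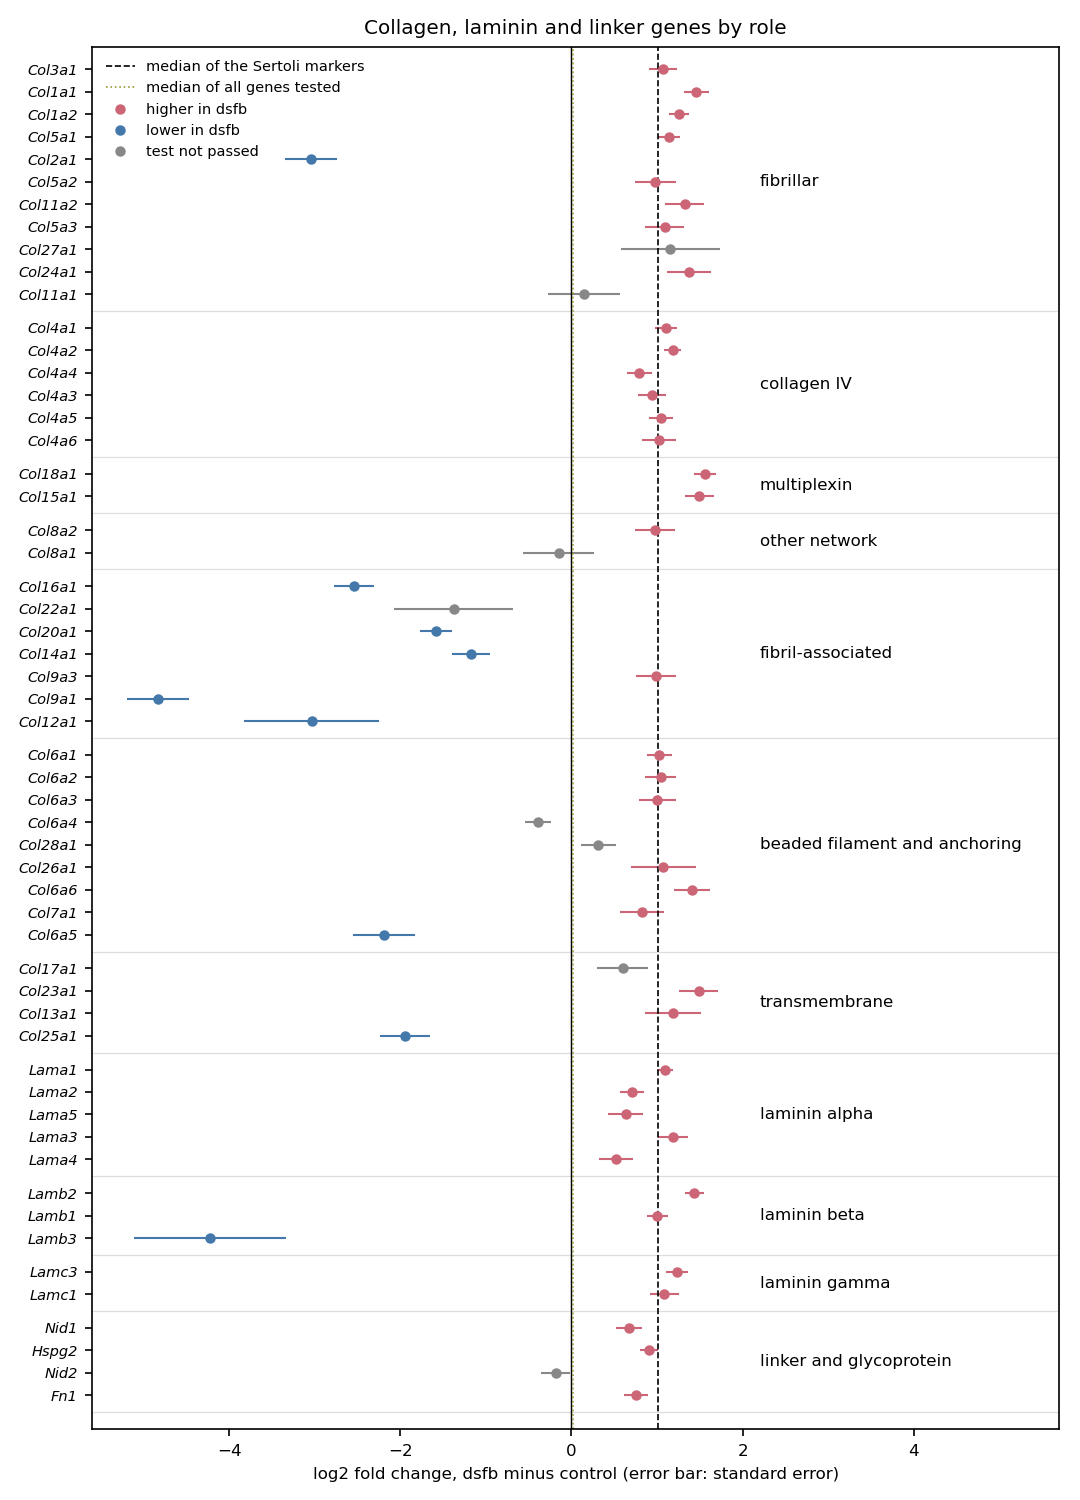
Log2 fold change (dsfb minus control, TMM scaling; bars are standard errors) of 55 of the 56 tested genes, ordered by role and within a role by level per exonic kilobase; the dashed line is the median of the Sertoli markers and the dotted line that of all genes. The 6 collagen IV genes lie between 0.79 and 1.18, around the dashed line at 1.01, and none of them passed on the Sertoli scale, whereas Col16a1, Col20a1 and Col14a1 of the fibril-associated collagens lie at -2.54, -1.58 and -1.17.

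All 6 chains of collagen IV rose on TMM scaling by 0.79 to 1.18 (median 1.03), while on the Sertoli scale they ranged from -0.27 to 0.12 and none passed. Of all genes tested, 30.7% were higher on TMM scaling, and 66% passed in either direction on the Sertoli scale. Col4a1 and Col4a2 encode the chains of the collagen IV trimer found in all basement membranes. Col4a1 was at 176, 138 and 130 CPM in control and 323, 301 and 328 in dsfb (1.10 ± 0.13 SE, adjusted p = 0.000198). Its partner Col4a2 was at 111, 90.8 and 89.2 CPM against 220, 215 and 224 (1.18 ± 0.10 SE, adjusted p = 4.6e-05). For both genes every dsfb library lay above every control library, and the dsfb values spread little (SD 14.5 and 4.29 CPM).

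Col4a3, Col4a4 and Col4a5 encode the chains that replace the common ones in specialised membranes such as that of the kidney glomerulus. Col4a3 was at 71.8, 59.8 and 45.0 CPM in control and 118, 106 and 115 in dsfb (0.94 ± 0.16 SE), and Col4a4 was at 153, 130 and 102 against 210, 224 and 232 (0.79 ± 0.15 SE). The X-linked Col4a5 was at 38.9, 30.8 and 27.0 CPM in control and 62.8, 68.0 and 69.0 in dsfb (1.05 ± 0.14 SE). Its X-linked neighbour Col4a6 was at 8.28, 7.35 and 5.93 CPM against 14.9, 13.0 and 15.9 (1.02 ± 0.19 SE). The groups were separate for all 4 genes, and the fold changes of both X-linked chains lay within 1 SE of that of Col4a1. The log2 ratio of Col4a5 to Col4a1 was -2.05 ± 0.06 (SD, n = 3) in control and -2.10 ± 0.11 in dsfb, with overlapping groups (exact permutation test, two-sided, p = 0.7, adjusted over 10 ratios 0.778).

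Laminin genes rose with collagen IV on TMM scaling, 9 of 11 rising, where 30.7% of all genes were higher. On the Sertoli scale 1 rose and 4 fell, where 64.7% of all genes were lower. Among the 4 was Lamb3, which passed the filter on low counts through the control libraries alone. All 5 alpha chains rose on the first scale by 0.52 to 1.19. Lama1, the alpha chain of the first laminin described, was at 73.8, 65.5 and 65.7 CPM in control and 136, 149 and 153 in dsfb (1.09 ± 0.09 SE, adjusted p = 3.56e-05). Lama2, the main alpha chain of muscle basement membrane, was at 137, 118 and 92.3 CPM against 191, 185 and 192 (0.71 ± 0.14 SE). Lama5, an alpha chain of many adult epithelia and vessels, was at 23.2, 23.9 and 25.2 CPM against 30.6, 31.0 and 50.5 (0.63 ± 0.21 SE, adjusted p = 0.0268). The groups did not overlap for any alpha chain, but Lama5 was highest in dsfb replicate 3, without which it did not pass (0.37, adjusted p = 0.0539), nor did it without control replicate 1 (adjusted p = 0.0882) or control replicate 2 (adjusted p = 0.0706). Lama3, an alpha chain of skin and other epithelia, rose by 1.19 ± 0.17. Lama4, a chain of vessel walls, had the smallest rise (0.52 ± 0.19, adjusted p = 0.0452) and did not pass under 9 of 15 alternatives, among them leaving out any library other than control replicate 3 (0.38 to 0.60). On the Sertoli scale Lama2 (-0.35) and Lama4 (-0.56) were lower in dsfb.

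Among the beta chains, Lamb2 had the highest level of all 59 genes per exonic kilobase, 46.4 CPM per kilobase over the 6 libraries. This chain, known from the synapse and the glomerulus, was at 166, 129 and 162 CPM in control and 423, 403 and 411 in dsfb (1.44 ± 0.11 SE, adjusted p = 2.83e-05). Lamb1, the beta chain of most embryonic laminins, was at 96.3, 82.8 and 70.5 CPM against 169, 157 and 174 (1.0 ± 0.12 SE). Both rose with no overlap of the groups. Lamb3, a beta chain of the laminin of the skin, was at 1.49, 1.28 and 6.58 CPM in control and 0.305, 0.0574 and 0.108 in dsfb (-4.23 ± 0.89 SE). Lamb3 entered the test through the control libraries alone, so its fold change is a description; its highest control value was in replicate 3, without which the value was -3.08.

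Among the gamma chains, Lamc1, part of most laminins, was at 68.6, 63.6 and 43.3 CPM in control and 125, 121 and 128 in dsfb (1.09 ± 0.16 SE). Lamc3 was at 133, 99.6 and 99.8 CPM against 249, 269 and 261 (1.23 ± 0.13 SE), a higher level per exonic kilobase than Lamc1. Both rose with no overlap of the groups, and on the Sertoli scale neither passed.

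Of the linkers, perlecan (Hspg2), a heparan sulphate proteoglycan, was at 139, 114 and 130 CPM in control and 217, 245 and 256 in dsfb (0.91 ± 0.11 SE, adjusted p = 0.000215). Nid1, which bridges laminin and collagen IV, was at 100, 88.6 and 69.0 CPM against 156, 131 and 124 (0.67 ± 0.15 SE, adjusted p = 0.00578). Nid2, its paralog, was at 46.3, 43.2 and 64.2 CPM against 43.1, 41.3 and 50.9 and did not pass (-0.18 ± 0.17 SE, adjusted p = 0.361). Perlecan and Nid1 were separate between the groups, and the Nid2 values overlapped. On the Sertoli scale Nid1 fell by 0.39 and Nid2 by 1.27, and perlecan did not pass. Nid2 shares 437 bases (8.45% of its exonic length) with Rtraf on the opposite strand, a gene that fell by 1.34; no source used here says whether reads were counted by strand, and what part of the Nid2 counts came from Rtraf was not tested. Fibronectin rose by 0.76 ± 0.14.

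Both multiplexins, collagens that sit at the outer face of basement membranes, rose on TMM scaling and on the Sertoli scale. Col18a1, the source of endostatin, was at 146, 124 and 108 CPM in control and 403, 341 and 374 in dsfb (1.56 ± 0.13 SE, adjusted p = 3.56e-05). Col15a1 was at 24.9, 17.8 and 16.5 CPM against 57.6, 58.3 and 50.9 (1.49 ± 0.17 SE, adjusted p = 0.000187). Both were separate between the groups by a wide margin, and on the Sertoli scale Col18a1 rose by 0.50 ± 0.11 (adjusted p = 0.00394) and Col15a1 by 0.44 ± 0.14 (adjusted p = 0.0266). The other genes that rose on that scale were Col1a1 (0.40 ± 0.12, adjusted p = 0.0216) and Lamb2 (0.36 ± 0.13, adjusted p = 0.0325). Of these 4, Col18a1 passed whichever single library was left out, whereas the number that rose was 2 without control replicate 2, 7 without control replicate 3 and 1 without dsfb replicate 1 or dsfb replicate 2.

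**Figure D2:**
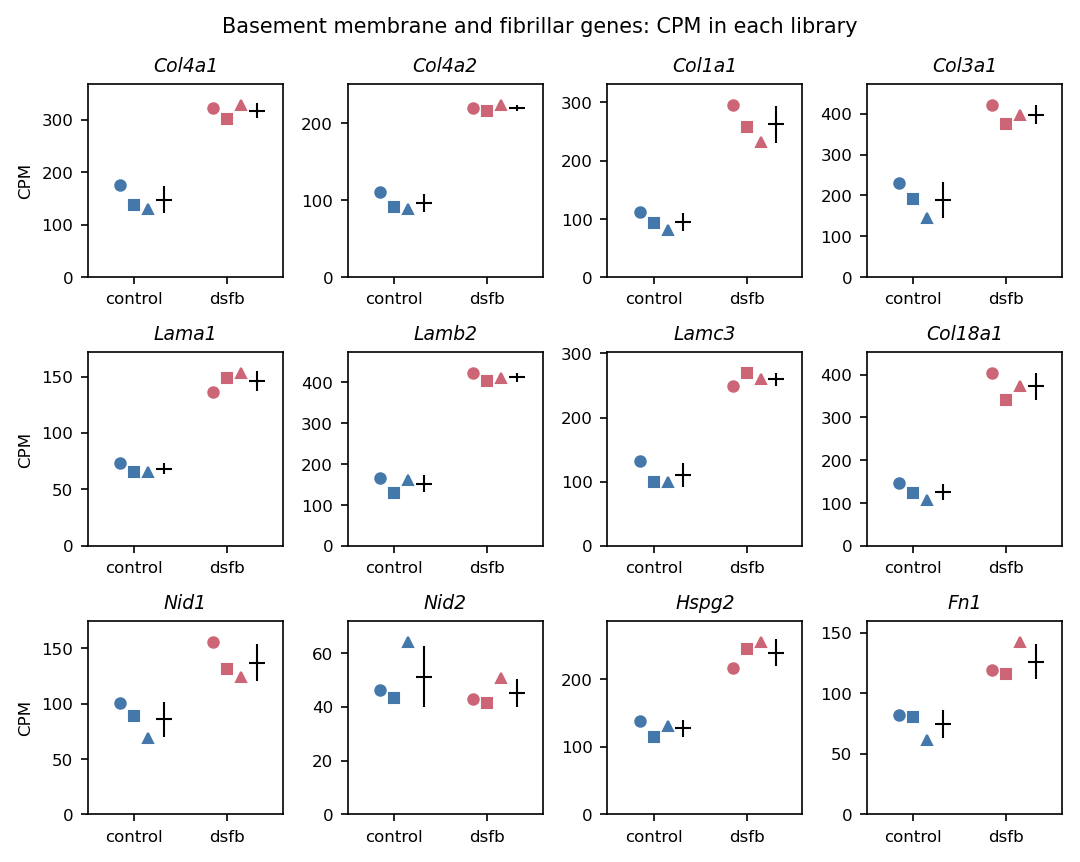
CPM on TMM-scaled library sizes of 12 basement membrane and fibrillar genes in each library (circle, square and triangle are replicates 1, 2 and 3; the cross is the mean and SD, n = 3; every axis starts at 0). The dsfb libraries lie above all control libraries for every gene shown except Nid2, whose 41.3 to 50.9 CPM in dsfb overlap 43.2 to 64.2 in control; on the Sertoli scale only Col1a1, Lamb2 and Col18a1 of these 12 were higher in dsfb.

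Fibrillar collagens, which form the banded fibres of connective tissue, rose in 8 of 11 with 1 fall on TMM scaling (median 1.14), and on the Sertoli scale 1 rose, 1 fell and 9 did not pass. Of all genes tested, 30.7% were higher and 36.2% lower on TMM scaling, and 1.26% and 64.7% on the Sertoli scale. Col3a1, of soft and distensible tissues, was at 231, 192 and 144 CPM in control and 422, 375 and 396 in dsfb (1.07 ± 0.17 SE). The chains of collagen I, the main fibre of skin and bone, were Col1a1 at 112, 92.8 and 81.3 CPM against 296, 258 and 232 (1.46 ± 0.14 SE) and Col1a2 at 213, 185 and 162 against 475, 440 and 426 (1.26 ± 0.12 SE). All 3 genes were separate between the groups, and in both groups the highest value of each came from replicate 1. Col5a1, Col5a2 and Col5a3, whose product starts and limits the width of collagen I fibrils, rose by 1.14, 0.98 and 1.09. Col11a2 and Col24a1 rose by 1.32 and 1.37. Col11a1 did not pass (0.14 ± 0.42), nor did Col27a1, at 5.77, 2.02 and 13.5 CPM in control and 13.8, 14.3 and 19.3 in dsfb (1.15 ± 0.58, adjusted p = 0.111), which passed without control replicate 3 (2.01, adjusted p = 5.26e-07) and was at 0.70 without control replicate 2 (adjusted p = 0.15).

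Col2a1, the main collagen of cartilage, was the fibrillar gene that fell. It was at 42.7, 41.4 and 75.8 CPM in control and 5.54, 5.45 and 8.42 in dsfb (-3.04 ± 0.30 SE, adjusted p = 9.14e-05). Each dsfb library was well under each control library, and without control replicate 3 the gene still fell by 2.73. Of 5 cartilage markers 4 were tested: Comp, a pentameric cartilage glycoprotein, fell by 6.22, from 122, 143 and 267 CPM to 2.44, 1.78 and 2.86, and Cnmd (chondromodulin) fell by 3.59. Matn3 rose by 1.64 at 0.688 CPM or less. Cnmd, at 0.378 to 0.406 CPM in dsfb, passed the filter on low counts through the control libraries alone, and Matn3 through the dsfb libraries alone. A low dsfb value of Cnmd and a low control value of Matn3 were thus built into their selection, and their fold changes are given as a description. The defining marker aggrecan (Acan), at 1.53 to 2.36 CPM in control and 2.24 to 4.48 in dsfb, did not pass. Matn1 was at 0.27 CPM or less in every library and at 0 in 3 of the 6.

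Fibril-associated collagens, which coat the surface of fibres, were the role in which falls outnumbered rises. Of 7 tested, 5 had passed the filter on low counts in both groups, and of these Col16a1, Col20a1 and Col14a1 fell and Col9a3 rose, while on the Sertoli scale none of the 7 rose. Of all genes tested, 30.7% were higher and 36.2% lower on TMM scaling, and 1.26% were higher on the Sertoli scale. Col16a1 was at 100, 112 and 186 CPM in control and 21.6, 22.7 and 24.2 in dsfb (-2.54 ± 0.23 SE, adjusted p = 6.34e-05). Col20a1 was at 19.1, 21.6 and 26.6 CPM against 7.26, 8.38 and 6.80 (-1.58 ± 0.19 SE, adjusted p = 0.000212). Col14a1, found in tendon and skin, was at 13.1, 14.3 and 19.4 CPM against 6.55, 8.09 and 6.10 (-1.17 ± 0.22 SE, adjusted p = 0.00223). In all 3 genes the groups were separate and the highest control value was that of replicate 3, without which they fell by 2.25, 1.47 and 1.02. That library is the one with the spermatid marker sum of 777 CPM, and the part of germ cell RNA in these values was not tested.

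The lower fibril-associated genes had few reads in dsfb. Col9a1, a chain of the cartilage collagen IX, was at 3.72, 4.58 and 5.98 CPM in control and 0.203, 0.115 and 0.162 in dsfb (-4.83 ± 0.36 SE). Col12a1, of tendon and other dense tissue, was at 1.16, 1.03 and 5.52 CPM against 0.254, 0.459 and 0.216 (-3.04 ± 0.79 SE, and -1.85 without control replicate 3). As both entered the test through the control libraries alone, their fold changes are given as a description. Col22a1, known from tissue junctions, was at 14.7, 13.7 and 88.4 CPM against 13.4, 15.0 and 16.5. Its value in control replicate 3 was the only one that stood apart: the fold change was -1.38 ± 0.69 with all libraries (adjusted p = 0.113) and 0.05 without that one. Col9a3 rose by 0.99 ± 0.24; it shares 234 bases (6.07% of its exons) with Tcfl5 on the opposite strand, which fell by 2.54.

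**Figure D3:**
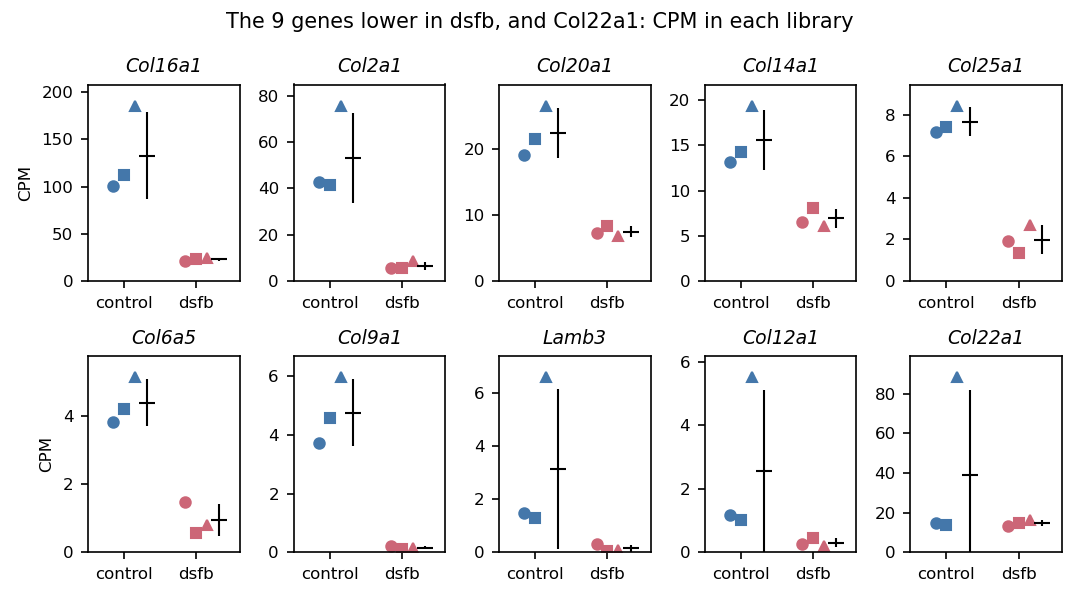
CPM on TMM-scaled library sizes in each library for the 9 genes that fell and for Col22a1 (circle, square and triangle are replicates 1, 2 and 3; the cross is the mean and SD, n = 3, and the lower SD of Col22a1 passes below the axis at 0). The highest control value is in replicate 3 in each panel, and for Lamb3, Col12a1 and Col22a1 it lies at 6.58, 5.52 and 88.4 CPM, far above the other control libraries.

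Among the genes of beaded filaments and anchoring fibrils, 6 of 9 rose and 1 fell on TMM scaling, where 30.7% of all genes were higher and 36.2% lower. On the Sertoli scale none rose and 3 fell, where 64.7% of all genes were lower. Collagen VI, a microfibril next to basement membranes, has Col6a1, Col6a2 and Col6a3 as its classical chains. Col6a1 was at 96.4, 72.1 and 72.4 CPM in control and 182, 165 and 143 in dsfb (1.03 ± 0.15 SE). Col6a2 was at 38.3, 36.9 and 25.0 CPM against 76.4, 71.6 and 58.3 (1.04 ± 0.18 SE), and Col6a3 at 31.1, 25.5 and 16.5 against 48.9, 53.1 and 44.5 (1.0 ± 0.22 SE). These 3 chains were separate between the groups and their fold changes lay within 1 SE of each other. The chains that can take the place of Col6a3 differed: Col6a6 rose by 1.41 ± 0.21, Col6a5 fell, from 3.82, 4.21 and 5.15 CPM to 1.47, 0.574 and 0.810 (-2.19 ± 0.36 SE, adjusted p = 0.00128), and Col6a4 did not pass (-0.39 ± 0.15, adjusted p = 0.0552). Col6a4 was nevertheless higher in every control library (23.5 to 31.2 CPM) than in any dsfb library (18.6 to 22.1). Col7a1, the anchoring fibril of skin, rose by 0.82 ± 0.26, but did not pass without control replicate 2, dsfb replicate 1 or dsfb replicate 3 (0.63 to 0.78). Col26a1 rose by 1.07 ± 0.38, but passed neither without control replicate 1 nor without any of the dsfb replicates (1.03 to 1.21), and was at 0.72 without control replicate 2. Col28a1 did not pass (0.31 ± 0.20).

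Of the transmembrane collagens, Col23a1 was at 2.51, 2.06 and 2.13 CPM in control and 7.16, 5.22 and 6.43 in dsfb (1.49 ± 0.23 SE), and Col13a1 was at 2.00, 2.06 and 1.07 against 4.83, 3.90 and 3.02 (1.19 ± 0.33 SE), the latter not passing without dsfb replicate 1 (1.02, adjusted p = 0.0583). Col17a1, of hemidesmosomes, was at 3.91, 2.64 and 5.28 CPM against 7.26, 5.28 and 5.40 and did not pass (0.60 ± 0.30, adjusted p = 0.109), but did without control replicate 3 (0.85, adjusted p = 0.00375), and was at 0.37 without control replicate 2 (adjusted p = 0.296). Col25a1, a collagen made mainly by neurons, was at 7.17, 7.39 and 8.44 CPM against 1.93, 1.32 and 2.70 (-1.95 ± 0.29 SE, adjusted p = 0.000744). This role therefore held rises and a fall at similar low levels, each with separate groups, but on the Sertoli scale none rose. Of the short network collagens, Col8a2 was at 3.16, 3.59 and 3.01 CPM against 7.42, 6.88 and 4.91 and rose (0.97 ± 0.23). Col8a1, at 0.574 to 1.36 CPM in all libraries, did not pass (-0.15 ± 0.41), and Col10a1, of growth plate cartilage, was at 0.233, 0.248 and 0.649 CPM against 0, 0.115 and 0.054. Col19a1 was at 0.413 to 2.55 CPM in control and 0.115 to 0.324 in dsfb, and Col9a2 was at 0.559 CPM or less in every library.

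Levels per exonic kilobase place the genes on 1 scale. Lamb2 came first in both groups, and the order after it differed between them. In control, Lamb2 (25.1 CPM per kilobase) was followed by Col4a1 (19.8), Col16a1 (19.7), Col3a1 (19.2), Col6a1 (18.3), Lamc3 (18.2) and Col18a1 (18.0). In dsfb, Lamb2 (67.8) was followed by Col18a1 (53.1), Lamc3 (42.6), Col4a1 (42.5), Col3a1 (40.5), Col1a1 (40.0) and Col6a1 (37.3). The order of close neighbours was not tested. The lowest was Col9a2 (0.0883) in control and Col10a1 (0.0180) in dsfb.

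Chain ratios within a library do not depend on scaling, and 10 were compared. In 5 the groups did not overlap, each with the smallest two-sided p that 3 against 3 allows (exact permutation test, p = 0.1, adjusted over the 10 ratios 0.2), so none can pass 0.05 here. The log2 ratio of Col1a1 to Col1a2 was -0.05 ± 0.04 (SD, n = 3) in control and 0.15 ± 0.10 in dsfb, and that to Col3a1 was -0.39 ± 0.13 and -0.02 ± 0.14. The ratio of Lamb1 to Lamb2 was -1.58 ± 0.29 in control and -2.01 ± 0.06 in dsfb, that of Nid1 to Nid2 0.33 ± 0.56 and 1.18 ± 0.29, and that of Col4a3 to Col4a4 -1.04 ± 0.05 and -0.88 ± 0.13. The difference for Nid1 to Nid2 was 0.85 and became 0.52 without control replicate 3, and that for Col4a3 to Col4a4 was 0.16 and became 0.086 without dsfb replicate 1. The remaining 5 overlapped. Among them, Col4a1 to Col4a2 was 0.43 ± 0.07 in control and 0.36 ± 0.04 in dsfb (p = 0.3), and Col4a5 to Col4a6 2.41 ± 0.08 and 2.44 ± 0.17 (p = 0.8, both exact permutation tests). Lamc1 to Lamc3 was -1.38 ± 0.28 and -1.50 ± 0.08, and Lama1 to Lama5 was 1.74 ± 0.15 and 2.24 ± 0.36.

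**Figure D4:**
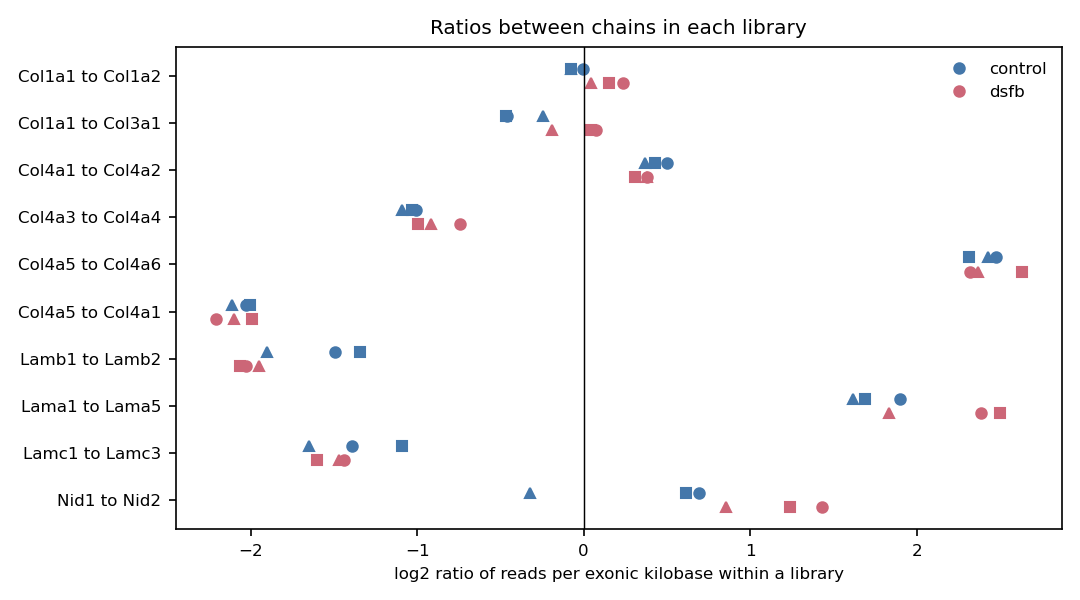
Log2 ratio of reads per exonic kilobase between 2 chains in each library (blue control above, red dsfb below; circle, square and triangle are replicates 1, 2 and 3). Col1a1 to Col1a2, Col1a1 to Col3a1, Col4a3 to Col4a4, Lamb1 to Lamb2 and Nid1 to Nid2 do not overlap between the groups, and the pair that shares a start region, Col4a1 to Col4a2, does.

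Genes that act on these proteins were read from 4 lists. Of all genes tested, 30.7% were higher and 36.2% lower in dsfb on TMM scaling, and 1.26% and 64.7% on the Sertoli scale. Of 23 receptors of collagen and laminin 16 rose and 3 fell (median 0.79). Ddr1, a receptor kinase that binds collagen, rose 2.81-fold (63.0 ± 2.58 CPM in control, 177 ± 12.6 in dsfb), Sdc4 (syndecan 4) rose 2.03-fold, and Itgb5, an integrin beta chain, rose 1.98-fold. The 3 that fell, named after their values were seen, were Itga1 (-1.0), Itga2 (-2.31) and Itga10 (-0.91), 3 of the 4 collagen-binding integrin alpha chains. The fourth, Itga11, did not pass (0.21). Itga2, at 0.965, 0.574 and 0.108 CPM in dsfb, passed the filter on low counts through the control libraries alone. Its low dsfb value was thus built into its selection. Itga10 shares 33.5% of its exons with Gm42957 on the same strand, and what part of its counts came from that gene was not tested. On the Sertoli scale 1 receptor rose and 7 fell.

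Enzymes and chaperones that modify or assemble collagen rose in 18 of 25 tested with no fall (median 0.76). On the Sertoli scale none rose and 6 fell, where 64.7% of all genes were lower. Colgalt1, which adds galactose to hydroxylysine, rose 2.10-fold, from 123 ± 9.72 to 258 ± 17.8 CPM. The lysyl hydroxylase Plod1 rose 2.02-fold and the prolyl 3-hydroxylase P3h1 rose 1.96-fold. Of 13 tested genes of matrix breakdown and its inhibitors 8 rose and none fell (median 0.82). They included the inhibitors Timp2 (2.00-fold, 233 ± 25.4 to 465 ± 35.0 CPM) and Timp1 (3.02-fold, at 2.16 ± 0.42 to 6.51 ± 0.65 CPM) and the membrane metalloprotease Mmp14 (1.77-fold). On the Sertoli scale none of the 13 rose and 3 fell.

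Among 27 other matrix genes 16 rose and 4 fell on TMM scaling (median 0.65), where 30.7% of all genes were higher and 36.2% lower. On the Sertoli scale none rose and 13 fell, where 64.7% of all genes were lower. Fbn2, a microfibril protein, fell from 116 ± 14.5 to 34.4 ± 1.90 CPM (-1.75 ± 0.11 SE, adjusted p = 1.1e-05), and Egflam (pikachurin, a dystroglycan ligand) from 89.6 ± 5.61 to 33.9 ± 1.64 (-1.40 ± 0.09). Efemp2, a fibulin of elastic fibres, rose from 14.4 ± 2.10 to 37.6 ± 1.33 CPM. The other 2 that fell, named after their values were seen, were Tnc (-3.27) and Postn (-2.13). Immediate early genes, which respond to handling of a sample, rose in 5 of 6 on TMM scaling (median 1.41), with sums of 46.2 to 51.6 CPM in control and 90.5 to 138 in dsfb. On the Sertoli scale 1 rose and 5 did not pass (median 0.33), where 1.26% of all genes were higher. The rise there was that of Fos, at 1.81, 1.16 and 0.788 CPM in control and 5.94, 15.9 and 3.51 in dsfb. The part of these immediate early genes in the values above was not tested.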

How the data were processed

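Testes of 3 control and 3 dsfb mice were sequenced as polyadenylated RNA, per the labels. The authors deposited raw counts of reads per gene; the submitters' processing notes name the aligner STAR 2.6.0 and the build mm10, and no source used here states the counting tool or whether it used strand. From the 55487 identifiers, 55227 were found in GENCODE M21. All counts were fitted with edgeR 4.0.16 in R 4.3.3 (filterByExpr, which asks for about 0.484 CPM in 3 libraries, TMM, glmQLFit, glmQLFTest, Benjamini-Hochberg over 19826 genes, prior count 0.125), group being the only term. The fit was tested on simulated counts first. A second fit scaled libraries on 12 Sertoli markers, and the error of that scaling is not in its test. Ratios had 0.5 counts added per chain. SE was derived as the size of the log2 fold change divided by the root of its F statistic.

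The 59 genes, the roles, the 11 marker and 4 pathway lists (184 of 184 symbols matched) and the tests were chosen with earlier results of these data known. Values in every library are given for the 3 genes of highest level per exonic kilobase in each role, all collagen IV genes and all genes that fell, and from each pathway list the 3 genes of smallest p are named. A gene that this takes is not reported here by name, but stands in the counts. Of the 59 genes 19 share exonic sequence with another gene, so without a known strand setting such values are uncertain. Libraries of a group all differed beyond sampling noise (chi-square per degree of freedom, 3.82 to 65.0). Alternatives were other scalings, filters, DESeq2 1.42.0, limma 3.58.1 (voom), a replicate block and leaving out each library.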

Additional observations from a re-analysis of the deposited data

How the results depend on the processing

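On TMM scaling the number of genes that rose was 34 to 42 and of those that fell 9 to 11 over 15 alternatives, and 42 of the 47 called genes were called in each. The others of the 47 were Lama4, Lama5, Col26a1, Col7a1 and Col13a1. Among the 42 were Col9a1, Col12a1 and Lamb3, whose low dsfb values were built into their selection. Upper-quartile scaling and library size alone moved the median of all genes by 0.28 and 0.39. Under them the sign of uncalled genes turned: Nid2 to 0.10 and 0.22, Col8a1 to 0.12 and 0.24, and with library size alone Col6a4 to 0.011. DESeq2 gave no adjusted p for 207 genes. Leaving out 1 library gave -0.42 to 0.18 for Col8a1, -1.82 to 0.049 for Col22a1 and -0.21 to 0.61 for Col11a1. It gave -0.064 to 0.092 for the ratio of Col4a5 to Col4a6, -0.26 to 0.016 for Lamc1 to Lamc3 and -0.10 to 0.0030 for Col4a5 to Col4a1.

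Scaled on peritubular myoid markers in place of Sertoli markers, 8 genes rose and 12 fell, and collagen IV ranged from 0.04 to 0.44 with 1 rise. On the Sertoli scale, leaving out 1 library gave 1 to 7 rises and 13 to 21 falls. There 1 collagen IV gene fell without control replicate 3, and 1 when marker counts were summed. The cause of these differences was not tested.

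The replicate numbers are not stated to pair the mice, and deviations of libraries with the same number correlated at 0.06 to 0.12, although each of the 6 correlated best with its own number. With the number as a replicate block 38 genes rose and 9 fell, and 4 rose and 17 fell on the Sertoli scale. Depth of 15.3 to 27.7 M reads limits what can be said of the genes with few reads in dsfb (Col9a1, Lamb3, Col12a1) and of the 3 not tested.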
